A study of Macaca mulatta with 31 samples.

Results

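The 100 genes described here were chosen by their correlation with MTARC2 (ENSMMUG00000057631) in single rhesus macaque blastocysts obtained on a standard chow diet (SCD), out of 35395 genes in the count table. Levels are given in CPM, the usual unit of read counts scaled by depth, in which the count of a gene is scaled to the total count of its blastocyst. Genes with an identifier number under 50000 were kept if they had 10 CPM or more in at least 5 of the 31 blastocysts, and the 200 with the highest median CPM were left out, which gave 8053 genes. The 500 of these with the largest SD of log2(CPM + 1) over the SCD blastocysts were ranked by Spearman correlation with MTARC2 over the same blastocysts, and the first 100 were taken. The correlation of the last gene taken was 0.297 and that of the next gene was 0.292, while the SD of the last variable gene kept was 1.06 on the log2 scale, as was that of the next gene. Symbols were found for 94 of the 100 members, and the other 6 are known by identifier only.

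The blastocysts came from oocytes of female macaques aged 5–6 years that were fertilized in vitro and cultured for 6–8 days. A first cycle of controlled ovarian stimulation (COS #1), during which the females were fed chow containing 15% fat, gave the 14 SCD blastocysts. A second cycle (COS #2) gave the 17 blastocysts of the Western-style diet (WSD), which contained 36% fat and had been fed for 6–8 months. Of these, 6 SCD and 9 WSD blastocysts had shown cellular fragmentation during development. All were labelled non-multipolar, since the authors sequenced only blastocysts with bipolar divisions. An SCD and a WSD blastocyst with low gene counts had been left out by the authors. Each blastocyst was sequenced as a library of its own after amplification of its cDNA. Total counts per library were between 11997445 and 27992541 for SCD and between 10037852 and 29865336 for WSD. Diet and stimulation cycle divided the blastocysts in the same way and cannot be told apart. The SCD blastocysts came from at most 5 mothers and the WSD blastocysts from at most 7, who included those 5, so blastocysts share mothers within and across the diets. The mother of each blastocyst was not known here, and p-values treat blastocysts as independent.

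MTARC2 encodes a molybdenum enzyme of the outer mitochondrial membrane that reduces N-hydroxylated compounds. A blastocyst holds an outer layer of trophectoderm, which forms the placenta, and an inner cell mass, which divides into the epiblast that forms the embryo and the primitive endoderm that lines the yolk sac. Many genes of the germ line are silenced in body tissues by DNA methylation, and that methylation is at its lowest around the blastocyst stage.

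On the RefSeq annotation of the Mmul_10 build, MTARC2 lies on the forward strand at chr1:78359164-78395810. Its level in SCD blastocysts was 5.18 CPM at the lowest, 16.7 CPM at the median and 438 CPM at the highest. The high values were those of SCD 7 with 234 CPM, SCD 13 with 358 CPM, SCD 15 with 406 CPM and SCD 14 with 438 CPM, and no other SCD blastocyst was above 48.3 CPM. In WSD blastocysts it was 2.85 CPM at the lowest, 5.67 CPM at the median and 41.5 CPM at the highest. WSD 7 had 41.5 CPM and WSD 8 had 26.6 CPM, while the next highest WSD blastocyst had 13.6 CPM. The diets overlapped, and 2 of the 17 WSD blastocysts were above the SCD median.

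Because 4 SCD blastocysts stood apart in MTARC2, the ranking that chose the members rested in part on those 4. The members' mean level, on the log2(CPM + 1) scale, was 5.12 in SCD 7, 4.87 in SCD 13, 4.91 in SCD 14 and 4.47 in SCD 15. In the other 10 SCD blastocysts it was at most 3.92 and at least 2.92. Over those 10 blastocysts alone, the median correlation of the members with MTARC2 was 0.13, and 62 of the 100 were above 0. These are values that the choice of members used, and they are given as a description.

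**Figure D1:**
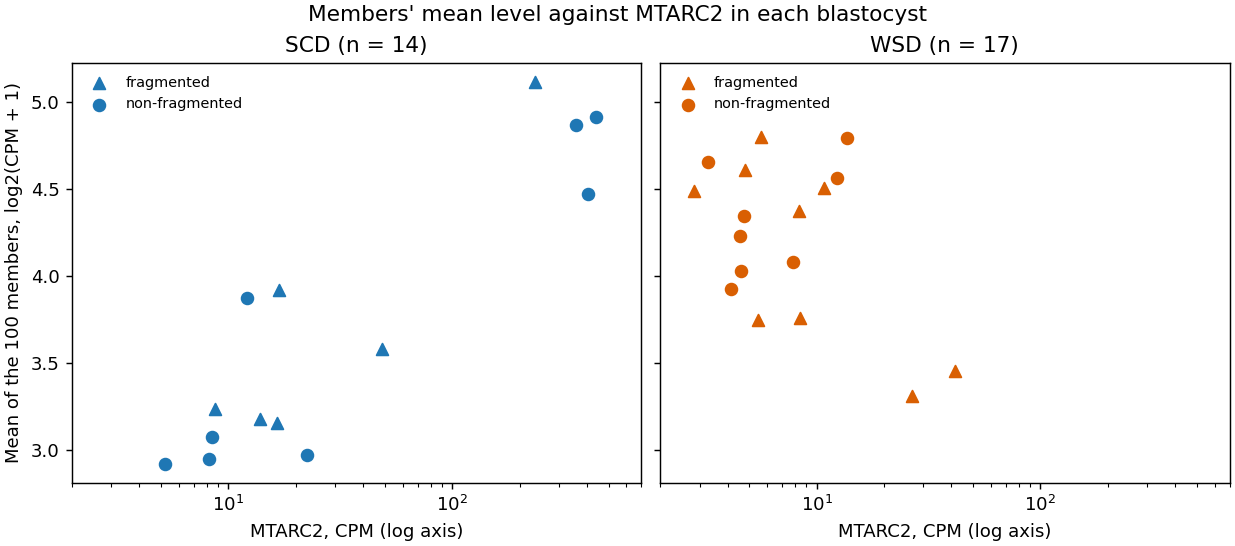
Mean of the 100 members on the log2(CPM + 1) scale (vertical axis) against MTARC2 in CPM on a log axis (horizontal axis), with 1 point per blastocyst, SCD on the left and WSD on the right, triangles for fragmented and circles for non-fragmented blastocysts. The SCD blastocysts with 234 CPM of MTARC2 or more had means of 4.47 to 5.12, while WSD blastocysts reached 4.80 with 5.67 CPM of MTARC2.

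Of the first 20 members, 6 are known from germ cells, by a sorting by hand. The other variable genes were not sorted by role, so no share stands beside this count. DDX4, the vasa RNA helicase of germ cells, ranked first with a correlation of 0.82 over the SCD blastocysts. It had 11.03 to 183 CPM after SCD with a median of 75.4 CPM, and 8.78 to 153 CPM after WSD with a median of 60.9 CPM. DDX4 was highest in SCD 7 among the SCD blastocysts, and the diets overlapped over nearly their whole range. HORMAD1, a protein of the meiotic chromosome axis, ranked second with a correlation of 0.79, and had 0.746 to 45.5 CPM after SCD (median 9.74 CPM) and 1.87 to 52.1 CPM after WSD (median 9.21 CPM). Its highest SCD value was in SCD 3, which had 16.8 CPM of MTARC2, so the members did not follow MTARC2 in each blastocyst.

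TEX11, an X-linked gene of meiotic recombination, had 0.118 to 38.8 CPM after SCD (median 6.59 CPM) and 1.07 to 45.2 CPM after WSD (median 10.7 CPM). NAA11, an N-terminal acetyltransferase subunit known from testis, had 1.04 to 42.1 CPM after SCD (median 12.5 CPM) and 1.12 to 37.6 CPM after WSD (median 15.5 CPM). For both genes the highest SCD blastocyst was SCD 13, and the diets overlapped. RBM44, an RNA-binding protein of germ cells, was between 0.393 and 27.6 CPM after SCD and between 0.961 and 21.5 CPM after WSD. LDHC, the lactate dehydrogenase of sperm, was between 0.314 and 26.1 CPM after SCD and between 1.37 and 22.1 CPM after WSD, and the diets overlapped in both genes. Other members known from germ cells were NANOS1, M1AP, ADAD1, PSMA8, CATSPERG and SPMAP2L. This made 12 when the members were sorted by known role after their values were seen. No fixed list was used, and germ-line genes among the other 400 variable genes were not counted. The 12 are therefore not read as an excess.

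Besides germ-line genes, the first 20 members held SRP9, a subunit of the signal recognition particle, at 52.4 to 621 CPM after SCD and 47.2 to 533 CPM after WSD. PFKP, the platelet form of the glycolytic enzyme phosphofructokinase, was between 2.45 and 44.8 CPM after SCD and between 0.186 and 81.6 CPM after WSD. EPHA4, an ephrin receptor, was between 0.369 and 20.8 CPM after SCD and between 0.374 and 23.6 CPM after WSD. In each of these 3 genes the diets overlapped. The rest of the first 20 were the zinc finger genes ZNF92 and ZNF257, the centrin CETN3, the heat shock protein HSPA4L, TMEM176B, CCDC73, the lysosomal membrane protein TMEM106B, the purine salvage enzyme HPRT1, and the unnamed ENSMMUG00000028701, ENSMMUG00000049915 and ENSMMUG00000039047. Reads shared between close relatives in the zinc finger family, or with other unnamed copies, could not be separated here, so the values of ZNF92, ZNF257 and the 3 unnamed genes are uncertain.

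**Figure D2:**
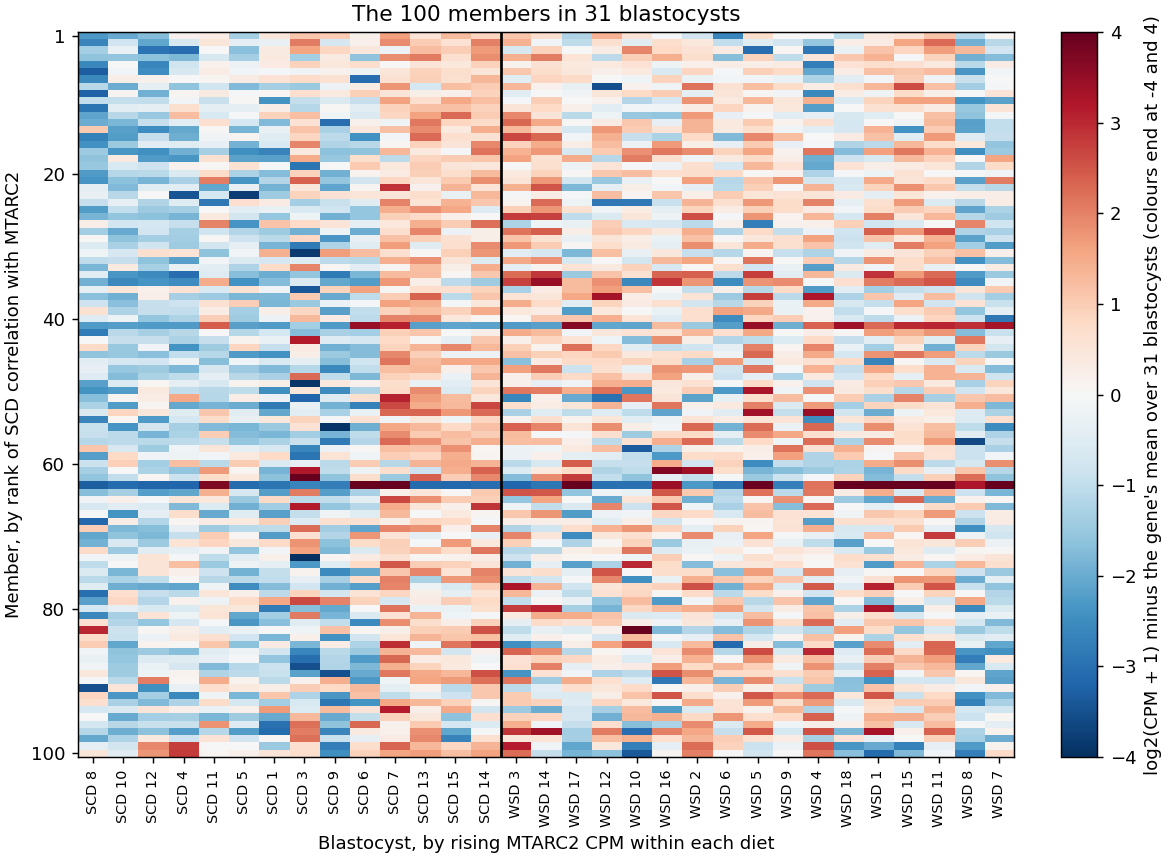
Level of each of the 100 members (vertical axis, by rank of SCD correlation with MTARC2) in the 31 blastocysts (horizontal axis, by rising MTARC2 within each diet), as log2(CPM + 1) minus the gene's mean over all blastocysts. The last 4 SCD blastocysts are SCD 7, SCD 13, SCD 15 and SCD 14, the blastocysts with 234 to 438 CPM of MTARC2.

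Whether the members also rose with MTARC2 after WSD was asked in the WSD blastocysts, which entered the filter on level but had no part in the correlation that chose the members. MTARC2 varied less there, with an SD of log2(CPM + 1) of 0.937, beside 2.28 after SCD, and a maximum of 41.5 CPM. The correlations and slopes below therefore cannot show whether members rise at the 234 CPM or more of the 4 high SCD blastocysts. The Spearman correlation over the 17 WSD blastocysts was above 0 in 36 of the 100 members, where it was above 0 in 55.1% of the 15347 genes tested. The median correlation was -0.13 for the members, 0.20 for the other 400 of the variable genes, and 0.03 for all genes tested. Of the first 20 members, 5 were above 0. The result depended on 2 blastocysts, since without WSD 7 and WSD 8, the farthest from the median of MTARC2, 59 of the 100 members were above 0 and the median was 0.08, where 55.4% of all genes were above 0 and their median was 0.04. Both had low levels of the members, with means of 3.46 and 3.31 on the log2(CPM + 1) scale. Over the 17 WSD blastocysts MTARC2 followed the number of genes with a count, with a Spearman correlation of 0.67. The mean of the other 400 variable genes also followed it (0.81), while the members' mean ran opposite (-0.35). The part of detected genes in these correlations was not tested.

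In a fit of each gene's slope on MTARC2 across the WSD blastocysts, edgeR's quasi-likelihood test with p-values adjusted by Benjamini-Hochberg called 0 of the 100 members and 0% of 15347 genes at an adjusted p-value under 0.05. At an unadjusted p-value under 0.05, 0 members rose and 16 fell, where 2.98% of all genes rose and 2.01% fell. The median slope was -0.27 for the members and -0.00377 for all genes, in log2 units per doubling of MTARC2 (on CPM + 1). DESeq2's Wald test and edgeR with legacy = FALSE called 0 members in either direction. Among all genes, 4 rose with DESeq2 and 20 with edgeR's legacy = FALSE.

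The members with the highest correlations after WSD were both on the Y chromosome. DDX3Y, the Y-linked copy of an RNA helicase that all cells use, had a Spearman correlation of 0.61 with MTARC2 (permutation p = 0.0106) and a Pearson correlation of 0.57 (permutation p = 0.0151). TBL1Y, another Y-linked gene, had a Spearman correlation of 0.54 (permutation p = 0.0256) and a Pearson correlation of 0.60 (permutation p = 0.00862). Without WSD 7 and WSD 8 the Pearson correlations were 0.62 and 0.59. The permutation tests were two-sided and run on all 15347 genes, and the adjusted p-values were 0.994 for both Spearman and 0.785 for both Pearson correlations, so neither passed. DDX3Y was either at most 0.651 CPM or at least 137 CPM in SCD blastocysts, and at most 1.11 CPM or at least 45.3 CPM in WSD blastocysts. The SCD correlations that made DDX3Y and TBL1Y members, 0.47 and 0.55, ranked mostly values near 0, with medians of 0.24 and 0.055 CPM. Among the SCD blastocysts high in MTARC2, SCD 7 had 268 and 40.2 CPM of the 2 genes. SCD 13, SCD 14 and SCD 15 had 0.229, 0.250 and 0.177 CPM of DDX3Y and 0.0573, 0.0834 and 0.118 CPM of TBL1Y. Y-linked genes are carried by male embryos only. The 500 variable genes held 7 more of them that were not members, and all 7 had a Spearman correlation with MTARC2 above 0 after WSD. So had 315 of the 400 variable genes that were not members, and 55.1% of all genes. After SCD the correlations of the 7 ran from -0.26 to 0.28. Genes of the Y chromosome are present or absent together, so the 7 are not separate observations. The highest after WSD was that of UTY, a histone demethylase gene named after its value was seen, at 0.71 (permutation p = 0.00192, adjusted p = 0.982), with a Pearson correlation of 0.62 (permutation p = 0.00612, adjusted p = 0.785) and 0.64 without WSD 7 and WSD 8.

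ADIPOR2, an adiponectin receptor, had a Spearman correlation of 0.49 (permutation p = 0.048) and a Pearson correlation of 0.37 (permutation p = 0.144). PSAT1, an enzyme of serine synthesis, had correlations of 0.47 (permutation p = 0.0579) and 0.42 (permutation p = 0.0931). ZSCAN16, a zinc finger gene, had correlations of 0.42 (permutation p = 0.0923) and 0.46 (permutation p = 0.0639). For these 3 genes the Pearson correlations without WSD 7 and WSD 8 were 0.40, 0.31 and 0.36. Adjusted over the 15347 genes, p was 0.994 for each Spearman correlation and 0.880, 0.836 and 0.828 for the Pearson correlations, so none passed.

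At the other end was HPRT1, which lies on the X chromosome, with a Spearman correlation of -0.67 (permutation p = 0.00381) and a Pearson correlation of -0.46 (permutation p = 0.0664). It had 32.2 to 383 CPM after SCD with a median of 138 CPM, and 65.6 to 375 CPM after WSD with a median of 176 CPM. TEX11 had correlations of -0.60 (permutation p = 0.0125) and -0.70 (permutation p = 0.00173). The Pearson correlations without WSD 7 and WSD 8 were -0.48 for HPRT1 and -0.45 for TEX11, and the adjusted p-values were again 0.994 for Spearman in both genes, and 0.828 and 0.785 for Pearson. RIPOR2, a regulator of the GTPase RhoA, the unnamed ENSMMUG00000049915 and the neurofilament gene NEFL followed, with Spearman correlations of -0.56, -0.48 and -0.47 (permutation p = 0.0200, 0.0512 and 0.0603) and Pearson correlations of -0.57, -0.57 and -0.56 (permutation p = 0.0163, 0.0167 and 0.0195). Adjusted p was 0.994 for each Spearman and 0.785 for each Pearson correlation, and in these 3 genes the relation weakened without WSD 7 and WSD 8, to Pearson correlations of -0.22, -0.15 and -0.15.

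**Figure D3:**
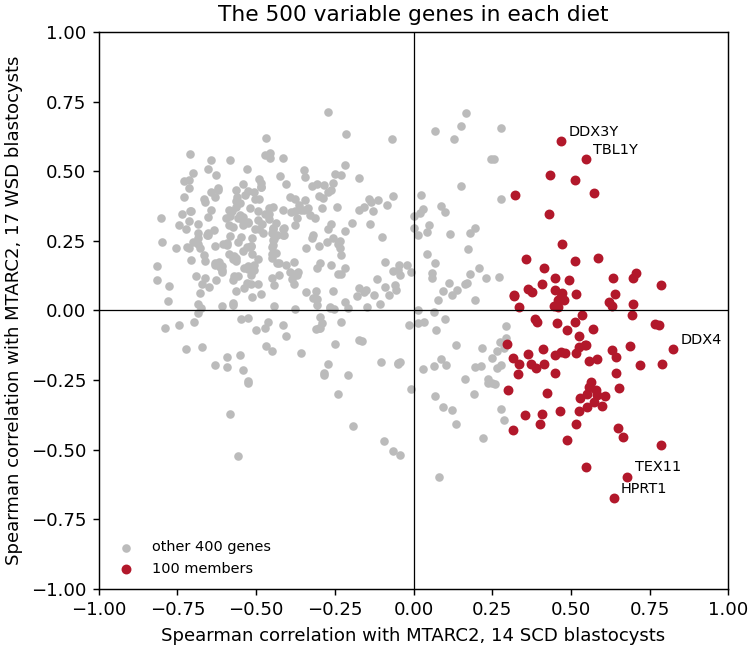
Spearman correlation with MTARC2 over the 14 SCD blastocysts (horizontal axis) and over the 17 WSD blastocysts (vertical axis) for the 500 variable genes, with 1 point per gene, members in red and the other 400 in grey. The members lie to the right because they were selected on the horizontal axis, and 36 of the 100 lie above 0 on the vertical axis.

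The correlation of each member with the mean of the other 99 was above 0 in 77 of the 100 members over the 17 WSD blastocysts, with a median of 0.36. Of 13084 genes outside the set, 51.7% were above 0 against the members' mean, with a median of 0.02, and of the other 400 variable genes 99 were above 0, with a median of -0.47. Taken in pairs, the members had a median correlation of 0.12 after WSD, with 62.5% of pairs above 0, and 0.40 after SCD, where they had been chosen. Pairs of the other 400 variable genes had medians of 0.24 after WSD, with 71.6% above 0, and 0.26 after SCD, while the median for pairs of all genes was 0.01 after WSD. NANOS1, a translational repressor of germ cells, had the highest value at 0.90, and QPCT, a glutaminyl cyclase, had the lowest at -0.71. Each of the 12 germ-line members was above 0, with a median of 0.61, and so was each of the 5 transcription factors of development (GCM1, KLF4, OTX2, HHEX and POU3F1), with a median of 0.69. All of the 4 members sorted under amino acid supply were below 0, with a median of -0.20. These were PSAT1, ASNS, the transporter SLC7A3 and TRIB3, a pseudokinase that itself supplies no amino acid. Above 0 were also 5 of 5 zinc finger members (median 0.46), 5 of 8 of innate immunity (median 0.27) and 2 of 4 of cell division (median -0.01). With MTARC2 itself after WSD, 1 of the 12 germ-line members was above 0 (median -0.21), 3 of 4 of amino acid supply (median 0.18), 2 of 5 transcription factors of development (median -0.04), 2 of 5 zinc finger members (median -0.01), 2 of 8 of innate immunity (median -0.15) and 2 of 4 of cell division (median -0.04). The counts with MTARC2 include WSD 7 and WSD 8. Without both, each transcription factor of development was above 0. So were most members of the zinc finger, innate immunity, cell division and amino acid supply groups, while most germ-line members were below 0. These groups were sorted by hand from known roles after the values were seen and were not tested.

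Markers of the 3 cell lineages were examined because a blastocyst is a mixture, in which fewer cells of a type and less RNA per cell cannot be told apart. Most trophectoderm markers ran opposite to the members. Of 20 listed, 17 were in the table and 16 had enough counts to be tested, led in abundance by the keratin KRT18, with a median of 5546 CPM and none of the list at a median of 0. Their summed level was between 4172 and 15918 CPM after SCD (median 12175 CPM) and between 1928 and 19673 CPM after WSD (median 5159 CPM). Of the 16, 0 were higher and 1 was lower after WSD, the placental transcription factor HAND1 (log2 fold change -2.97; adjusted p = 0.03004, edgeR's quasi-likelihood test with Benjamini-Hochberg), where 0.895% of all genes were lower. At an unadjusted p-value under 0.05, 10 of the 16 were lower and 0 were higher, where 10.8% of all genes were lower, and the median log2 fold change of the list was -0.88. HAND1 was not called with the replicate block, detected genes or DDX3Y in the model, or in 4 of the 31 fits without 1 blastocyst. Its log2 fold change was -3.29 with the replicate block, -2.16 with detected genes and -3.71 with DDX3Y. Single markers had Spearman correlations with the members' mean below 0 in 15 of the 16 after SCD (median -0.60) and in 13 of the 16 after WSD (median -0.68), taking the other 99 members for GCM1, which is itself a member. The Spearman correlation of the sum with the members' mean was -0.74 over the SCD and -0.77 over the WSD blastocysts. With MTARC2 itself the correlation of this sum was -0.60 after SCD and 0.34 after WSD. After WSD, 13 of the 16 tested markers were above 0 with MTARC2, as were 315 of the other 400 variable genes. WSD 7 and WSD 8, with the highest MTARC2 after WSD, also had the highest sums (13730 and 19673 CPM) and were included in these values. The lowest sum after SCD was in SCD 7 and the highest after WSD was in WSD 8, the blastocysts with the highest SCD and the lowest WSD mean of the members.

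Most primitive endoderm markers also ran opposite to the members, with correlations below 0 in 10 of the 12 tested in each diet (median -0.76 after SCD and -0.53 after WSD). Of 13 listed, 12 were tested, led by the apolipoprotein APOA1 with a median of 537 CPM, and their sum was between 737 and 4806 CPM after SCD (median 3517 CPM) and between 854 and 5008 CPM after WSD (median 1429 CPM). Its correlation with the members' mean was -0.82 after SCD and -0.55 after WSD, and its correlation with MTARC2 was -0.61 after SCD and 0.57 after WSD, where 11 of the 12 markers were above 0, against 2 of the 12 after SCD. The 12 epiblast markers found of 15, led by POU5F1 with a median of 590.2 CPM, summed to a median of 1372 CPM after SCD (963 to 2397 CPM) and 1846 CPM after WSD (886 to 3197 CPM), and their correlations were 0.49 and 0.29 with the members' mean and 0.41 and 0.04 with MTARC2. Single epiblast markers had median correlations with the members' mean of -0.09 after SCD and -0.02 after WSD. The groups overlapped in all 3 sums. Between the diets, edgeR's quasi-likelihood test called 0 primitive endoderm and 0 epiblast markers. At an unadjusted p-value under 0.05, 4 primitive endoderm markers were lower and 0 higher after WSD (median log2 fold change -0.92). For epiblast 2 were lower and 1 was higher (median 0.11). At the same threshold 10.8% of all genes were lower and 11.1% were higher. The correlations with the members' mean and MTARC2 are descriptions over 14 and 17 blastocysts, and the part of cell lineage in the members' levels was not tested.

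Of the 3 lineage lists, a single gene was a member, GCM1, a transcription factor of the placenta, at 1.37 to 61.3 CPM after SCD and 2.54 to 69.1 CPM after WSD. Unlike the list's sum it ran with the other 99 members, with a Spearman correlation of 0.55 after SCD and 0.76 after WSD. Of the 10 cumulus and granulosa cell markers, 5 had a median of 0, FSHR among them, and the list had a summed median of 44.7 CPM after SCD and 45.9 CPM after WSD, led by STAR (34.8 to 113 CPM after SCD and 33.7 to 114 CPM after WSD for the sum). Of the 9 oocyte and sperm markers, 4 had a median of 0, among them the protamines PRM1 and PRM2, and the sum, led by the oocyte gene GDF9, had a median of 6.28 CPM after SCD (1.42 to 132 CPM) and 6.72 CPM after WSD (0.488 to 53.9 CPM). No member was on these lists.

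Between the diets, edgeR's quasi-likelihood test called 2 of the 100 members higher after WSD and 0 lower (p under 0.05 after adjustment by Benjamini-Hochberg). Over the 13184 genes tested, 1.18% were higher and 0.895% were lower after WSD. At an unadjusted p-value under 0.05, 22 members were higher and 1 was lower, where 11.1% of all genes were higher and 10.8% were lower. All 100 members passed the filter on low counts. The median log2 fold change, WSD over SCD, was 0.31 for the members, -0.02 for all genes and -0.88 for the 399 other variable genes tested, of which 2 were higher and 19 were lower. The SCD blastocysts in this contrast had chosen both groups of variable genes, so these counts and medians, and the calls of single members below, are given as a description and nothing is read from their difference to all genes.

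INTS6L, an X-linked relative of a subunit of the Integrator complex at chrX:131797873-131860515, had 6.81 to 56.5 CPM after SCD with a median of 12.97 CPM, and 10.0 to 205 CPM after WSD with a median of 40.4 CPM. The diets overlapped, and 15 of the 17 WSD blastocysts were above the SCD median. Its log2 fold change was 1.68 (standard error 0.44; adjusted p = 0.0419, edgeR's quasi-likelihood test with Benjamini-Hochberg). MFN1, the mitofusin that joins the outer membranes of mitochondria, at chr2:84486157-84531443, had 27.2 to 421 CPM after SCD with a median of 91.7 CPM, and 58.6 to 663 CPM after WSD with a median of 293 CPM. Again the diets overlapped, with 16 of the 17 WSD blastocysts above the SCD median. Its log2 fold change was 1.24 (standard error 0.33; adjusted p = 0.0425 from the same edgeR test). NANOS1 just missed the threshold, with a log2 fold change of 2.08 (standard error 0.58; adjusted p = 0.0504 from the same edgeR test), from a median of 4.35 CPM after SCD to 39.8 CPM after WSD. It was called with DESeq2, with edgeR's legacy = FALSE, with RLE scaling, with no filter and with fragmentation as a covariate. It was not called with the replicate block, detected genes, log10 library size or DDX3Y in the model. Its log2 fold change there was 2.78, 1.42, 2.08 and 1.99, in that order. Nor was it called in 22 of the 31 fits without 1 blastocyst. The calls of INTS6L and MFN1 were each lost in 15 of those 31 fits and with the replicate block (adjusted p = 0.0582 for both), detected genes (0.559 and 0.586) or DDX3Y (0.0936 and 0.130) in the same edgeR test, and that of INTS6L also with log10 library size (0.0511). With the replicate block the log2 fold changes of INTS6L and MFN1 were 1.81 and 1.61, and with DDX3Y they were 1.69 and 1.16. With detected genes they were 1.38 and 0.858, and that of INTS6L was 1.67 with log10 library size. INTS6L, MFN1 and NANOS1 were named after their values were seen.

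**Figure D4:**
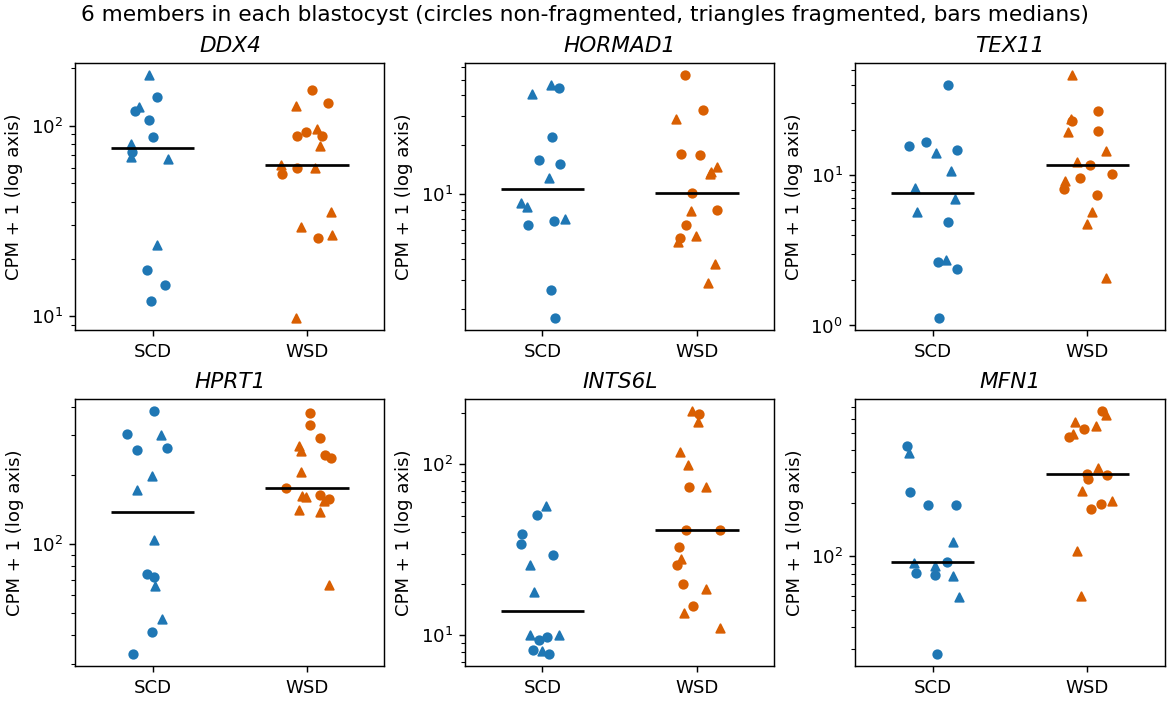
CPM + 1 on a log axis in each SCD (blue) and WSD (orange) blastocyst for 6 members, with circles for non-fragmented and triangles for fragmented blastocysts and bars at the medians. The diets overlap in all 6 genes, and 16 of the 17 WSD blastocysts lie above the SCD median in MFN1.

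The count of members called between the diets was unstable. DESeq2's Wald test called 11 members higher and 1 lower, and edgeR with legacy = FALSE called 11 higher. Among all genes, 499 were higher and 477 lower with DESeq2, and 425 and 533 with legacy = FALSE. With log10 library size as a covariate 1 member was called, and 0 with the number of detected genes or the level of DDX3Y as a covariate. Among all genes, 0 were called with detected genes, and 15 were higher and 4 lower with DDX3Y. SCD blastocysts had 17211 to 25762 genes with a count and WSD blastocysts had 14428 to 20863, and DDX3Y was at 10 CPM or more in 3 of 14 SCD and 10 of 17 WSD blastocysts. Their part in the result was not tested further. Among all genes, leaving out 1 blastocyst gave 35 to 500 higher and 24 to 315 lower. With 1 blastocyst left out, 0 members were higher without SCD 1, SCD 4, SCD 5, SCD 6, SCD 9, SCD 10, SCD 12, WSD 1, WSD 2, WSD 3, WSD 5, WSD 11, WSD 14 or WSD 15, and 1 without SCD 8 (where INTS6L was lost) or WSD 16 (where MFN1 was lost). There were 4 without WSD 6 or WSD 9, 5 without WSD 17 or WSD 18, 6 without SCD 13, 7 without SCD 14 or WSD 7, 8 without WSD 8 and 9 without SCD 7, and 1 member was lower without WSD 10.

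Fragmentation of the embryo was compared within each diet, as a label that the choice of members did not use. The SCD blastocysts themselves had chosen the members, so the counts of members after SCD are given as a description. After WSD, 0 of 100 members were called between 9 fragmented and 8 non-fragmented embryos in edgeR's quasi-likelihood test, beside 0% of the 12724 genes tested. At an unadjusted p-value under 0.05, 4 members were higher and 6 lower in fragmented blastocysts, where 2.16% and 1.35% of all genes were. After SCD, 0 of the 98 members that passed the filter were called between 6 fragmented and 8 non-fragmented blastocysts by the same edgeR test, beside 0% of 13561 genes, with 1 member higher and 2 lower at an unadjusted p-value under 0.05 (1.85% and 0.656% of all genes). DESeq2's Wald test called 0 members in either diet, and among all genes 11 after WSD and 0 after SCD.

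The members were spread over the genome. Positions were found for 92 of the 100, on 22 chromosomes, with 5 on the X and 2 on the Y chromosome and 8 on chromosome 1, which carries MTARC2 and 10.0% of the located genes that were tested. The X chromosome held 5.43% of the members located and 3.65% of the 13116 located genes that were tested. LYPLAL1, a lysophospholipase-like gene, was the member nearest to MTARC2, at a distance of 1.62 Mb. In 3 pairs, members lay within 100000 bases of each other: MFN1 and GNB4, a G protein subunit, 6026 bases apart on chromosome 2; PRKD3, a protein kinase, and QPCT, 15551 bases apart on chromosome 13; and TEX11 and SLC7A3, 19118 bases apart on the X chromosome. Over the WSD blastocysts the correlation between the neighbours was 0.80 for MFN1 and GNB4, 0.22 for TEX11 and SLC7A3, and -0.60 for PRKD3 and QPCT.

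The 300 bases before the start of each gene in RefSeq's Mmul_10 annotation were read for the 92 located members and for 13112 of the tested genes. The median GC content of these windows was 54.2% for the members and 59.7% for the tested genes, and the median ratio of observed to expected CG pairs was 0.578 and 0.732. The letters TCCCGC, which occur in binding sites of E2F factors, were found on either strand in 23 of the 92 windows (25.0%) and in 33.7% of all. CACGTG, an E-box, was found in 6 of the 92 (6.52%) and in 8.66% of all. A match is a run of letters and not a site of binding.

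The window of MTARC2 is shown because this gene chose the members and its window holds TCCCGC once, in capitals, on the forward strand. It does not hold CACGTG. The window is chr1:78358864-78359163 on the forward strand of Mmul_10, printed 5′ to 3′, with 62.7% GC.
MTARC2: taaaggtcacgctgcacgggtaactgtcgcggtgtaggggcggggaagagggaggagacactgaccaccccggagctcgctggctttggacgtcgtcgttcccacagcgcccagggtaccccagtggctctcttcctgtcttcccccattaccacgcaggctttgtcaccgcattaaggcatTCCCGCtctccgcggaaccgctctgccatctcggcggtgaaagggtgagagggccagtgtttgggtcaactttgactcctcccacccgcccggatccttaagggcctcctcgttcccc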

How the data were processed

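RNA of single blastocysts was amplified as cDNA, with 16 further cycles for the library, and sequenced as 75-base single reads. The authors trimmed the reads with Trimmomatic 0.39, aligned them to Mmul_10 with STAR 2.7.0 and deposited raw read counts per gene of Ensembl release 99, with 1 column per blastocyst and 0 columns left unmatched here. STAR counts reads that align to a single place, so near-identical genes are undercounted, and the strand setting is not stated, so overlapping genes are uncertain. Amplified reads without molecular identifiers are not independent molecules.

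Diet and fragmentation class were taken from the labels. Symbols were found for 24173 of the 35395 identifiers, and positions were taken from RefSeq's Mmul_10 annotation by symbol or gene ID. Comparisons used edgeR 4.0.16 in R 4.3.3 (quasi-likelihood F test, legacy = TRUE, filterByExpr, TMM scaling, Benjamini-Hochberg adjustment over all tested genes, adjusted p under 0.05). Standard errors are approximate, from the fold change and F. CPM and log2(CPM + 1) were computed here. Total counts per blastocyst ran between 10037852 and 29865336, and p-values treat blastocysts of 1 female as independent. The slope on log2(CPM + 1) of MTARC2 was fitted in WSD blastocysts only, without MTARC2 itself. Permutation tests of correlations used 100000 resamples. The tests were tested on simulated data first.

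The genes named by rule were MTARC2, the 20 members with the highest SCD correlation, and the 5 with the highest and the 5 with the lowest WSD correlation. The members and lists were chosen with earlier results of these data known, and the groups of members by role after their values were seen. The alternatives were DESeq2 1.42.0, legacy = FALSE, RLE scaling, no filter, the rank of MTARC2, the replicate number as a block, detected genes, log10 library size or fragmentation as a covariate, leaving out blastocysts, and, for the choice of members, TMM scaling and Pearson correlation. DDX3Y as a covariate, and the alternatives for the count of correlations above 0, were added after the data were seen.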

Additional observations from a re-analysis of the deposited data

Results flagged for a closer look

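Within the fragmented and non-fragmented blastocysts of each diet, 9 measures were examined for a blastocyst far from the rest of its group. HPRT1 in WSD 4 was 6.06 on the log2(CPM + 1) scale, the lowest of the fragmented WSD blastocysts, of which the next was 7.11. DDX3Y in SCD 11 was 7.11 on the same scale, the highest of the non-fragmented SCD blastocysts, of which the next was 0.596. These were 2 of 36 groups, and chance flags about 1 in 20 groups. That rate does not apply to DDX3Y, which is Y-linked and was either at most 0.651 CPM or at least 137 CPM in SCD blastocysts. SCD 11 also had 24.7 CPM of the Y-linked TBL1Y.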

How the results depend on the processing

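The slope on MTARC2 after WSD called 0 members, rising or falling, under each alternative run, including the 17 fits without 1 blastocyst and the permutation test. Among all genes, 4 rose with DESeq2, 20 with legacy = FALSE and 87 with no filter, and between 0 and 1 with 1 blastocyst left out. The members with a correlation above 0 after WSD numbered 37 with TMM scaling, 59 without WSD 7 and WSD 8, and from 27 to 43 with 1 blastocyst left out.

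Between the diets, members called higher numbered 11 with DESeq2, 11 with legacy = FALSE, 10 with no filter, 1 with log10 library size as a covariate, and 0 with detected genes or DDX3Y as a covariate. RLE scaling and fragmentation as a covariate gave 3 each. Members lower numbered 1 with DESeq2. Leaving out 1 blastocyst gave 0 to 9 higher and 0 to 1 lower members. Among all genes, 499 were higher and 477 lower with DESeq2, 425 and 533 with legacy = FALSE, 462 and 1777 with no filter, 0 and 0 with detected genes, and 15 and 4 with DDX3Y, while 76 were lower with log10 library size. Leaving out 1 blastocyst gave 35 to 500 higher and 24 to 315 lower genes. For fragmentation after WSD, DESeq2 called 11 genes. The cause was not tested. DDX3Y as a covariate and the alternatives for correlations above 0 were chosen after seeing the data. INTS6L and MFN1 each lost their call in 15 of the 31 fits without 1 blastocyst.

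Replicate numbers are shared by 13 SCD and WSD pairs. The mean correlation of paired deviations from the diet means was 0.0234, from -0.419 to 0.262, so the numbers were not taken to pair the blastocysts. With the replicate block, 0 members were higher, and 3 genes were higher and 4 lower in all. With the replicate block the log2 fold changes of DDX4, ZNF257 and RIPOR2 turned to 0.239, 0.27 and 0.0538.

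The log2 fold change between the diets of other named genes changed sign with the setting. With detected genes as a covariate the log2 fold change was -0.41 for ENSMMUG00000049915, -0.0862 for CETN3, -0.224 for NAA11 and -0.0677 for TMEM106B. CETN3 was -0.0238 with log10 library size, -0.00299 with fragmentation and -0.0818 with DDX3Y as a covariate, and ZNF257 was 0.00172 with no filter, 0.00681 with fragmentation and 0.041 with DDX3Y. Leaving out 1 blastocyst gave -0.0901 to 0.0883 for CETN3, -0.0979 to 0.0965 for ZNF257, -0.00629 to 0.335 for NAA11, -0.483 to 0.172 for PSAT1 and -0.283 to 0.0448 for RIPOR2.

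When the members were chosen again, 90 of the 100 returned with TMM scaling, 83 with Pearson correlation and 79 to 93 with 1 SCD blastocyst left out. The lowest total count, 10037852, limits the precision of members at a few CPM.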

Other observations

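NEFL, which encodes a neurofilament of neurons, had 6.29 to 322 CPM after SCD (median 50.1 CPM) and 18.3 to 569 CPM after WSD (median 159 CPM). KLF4, a transcription factor of pluripotent and epithelial cells, had 33.1 to 738 CPM after SCD (median 159.6 CPM) and 37.8 to 822 CPM after WSD (median 421 CPM). The diets overlapped in both genes, and neither was called (adjusted p = 0.132 for NEFL and 0.313 for KLF4, edgeR's quasi-likelihood test with Benjamini-Hochberg). ZIM3, a zinc finger gene, had a median of 0.701 CPM after SCD and 19.6 CPM after WSD, with a log2 fold change of 2.55 (standard error 0.82; adjusted p = 0.0769 from the same edgeR test), and 14 of the 17 WSD blastocysts were above the SCD median. ZIM3 was called with DESeq2, with edgeR's legacy = FALSE and with no filter. It was not called with RLE scaling, the replicate block or any covariate. KLF4 and ZIM3 were named after their values were seen.

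In both diets, the members' mean ran opposite to the number of genes with a count, with a Spearman correlation of -0.35 over the 14 SCD and -0.35 over the 17 WSD blastocysts. For MTARC2 the correlation with the number of detected genes was -0.16 after SCD and 0.67 after WSD. The other 400 variable genes had a mean that followed the number of detected genes, at 0.30 after SCD and 0.81 after WSD. These are descriptions over few blastocysts.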
